A study of Mus musculus with 6 samples.

Results

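Fibro-adipogenic progenitors are the connective-tissue cells of skeletal muscle, and 10 genes that mark them were followed here through cultures of muscle-derived stem/progenitor cells (MDSPCs). The 10 genes are Pdgfra, Pdgfrb, Dcn, Lum, Gsn, Smoc2, Mfap5, Dpt, Fbln2 and Mgp, a list fixed by name. All 10 were among the 21485 gene identifiers shared by the 6 count matrices. No more than 7 of them reached 1 CPM (counts of unique molecular identifiers, UMIs, per 1000000) in any sample, and Gsn and Mgp held most of their UMIs.

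In muscle, fibro-adipogenic progenitors lie between the fibres, carry the growth factor receptor PDGFRα, lay down collagens and proteoglycans, support repair by muscle stem cells, and can become fat cells or scar-forming fibroblasts. The myogenic lineage is separate: its cells depend on the factors PAX7 and MYF5 as progenitors, on MYOD1 as myoblasts and on MYOG when they exit the cycle and make contractile proteins. Several of the 10 genes are also known from other mesenchymal cells, such as chondrocytes and vascular smooth muscle (Mgp) and nearly all cells that remodel actin (Gsn).

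The cells came from mouse muscle that was digested with enzymes and replated serially, so that slowly adhering cells were enriched, and were then grown in serum-rich proliferation medium on collagen. There were 3 populations from young mice (Y1-1, PtC5 and FT-QU, replicates 1 to 3) and 3 from old mice (O1-1, NA-f2 and NA-f3, replicates 1 to 3), each profiled once by droplet-based 3′ single-cell RNA sequencing. The labels name no treatment other than culture, and give no genotype, strain, sex or age in weeks or months. They do not say how many animals gave each population. They call the samples biological replicates, and the p-values between ages measure the spread between these 6 samples. Those for classes of cells and for co-detection measure how a difference within samples varied over the samples used. Young replicate 1 and old replicate 1 were counted on a gene list of 21849 features and the other 4 on a list of 32285, so each age group held both lists.

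Of 62849 barcodes, 61673 were kept as cells, with 8674 to 12541 cells and a median of 13001 to 19951 UMIs per sample. Pairs of libraries shared 24 to 41 barcodes, at most 0.375% of either library. The myogenic genes that define the labelled cell type were uneven between the cultures. Myod1 was at 50.8, 459 and 45.7 CPM in young and 64.1, 468 and 909 in old samples, in the order of replicates 1, 2 and 3. Young replicate 3 had 5 Pax7 UMIs and Des at 2.69 CPM, and young replicate 1 had 1 Myf5 UMI. Among cells thinned to 5000 UMIs (described below), many held no UMI of Myod1, Myog, Pax7, Myf5 or Des. They were 73.3%, 3.57% and 69.7% of the young and 77.3%, 16.4% and 2.62% of the old cells. A missing UMI at this depth does not show that a cell lacks the RNA. The level of each gene is given below as CPM, its UMIs scaled to the total UMIs of shared genes, summed over all cells of a sample. In such sums, fewer positive cells and less RNA per cell cannot be told apart. Intervals and limits from counts cover counting error only.

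MYOD1 and MYOG bind the E-box, CANNTG, which reads the same on both strands, and promoters of 2 of the genes are shown because co-detection with Myod1 is reported below. RefSeq promoter windows were matched for 4 of the 10 genes, and the 250 bases before the RefSeq start of Gsn and Pdgfra are printed here 5′ to 3′ with the E-box in capitals (RefSeq, GRCm38.p6, plus strand; chr2:35256109-35256358 for Gsn and chr5:75152001-75152250 for Pdgfra).
Gsn: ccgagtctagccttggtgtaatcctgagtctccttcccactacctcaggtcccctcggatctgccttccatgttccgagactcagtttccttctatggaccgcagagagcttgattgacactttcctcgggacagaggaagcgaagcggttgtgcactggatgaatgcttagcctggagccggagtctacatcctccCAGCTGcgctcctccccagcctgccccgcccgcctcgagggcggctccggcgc
Pdgfra: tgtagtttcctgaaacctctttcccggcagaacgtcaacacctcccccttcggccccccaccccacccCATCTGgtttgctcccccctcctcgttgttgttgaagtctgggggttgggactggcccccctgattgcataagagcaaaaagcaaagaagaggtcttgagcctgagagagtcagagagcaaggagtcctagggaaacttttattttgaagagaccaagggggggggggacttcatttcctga
Each window held 1 E-box, and 66.2% of 32851 promoters of the same length held at least 1 (median 1). The GC content was 60.8% for Gsn and 54.4% for Pdgfra, with a median of 52.4% over all promoters. A match describes the letters only and does not show that a factor binds.

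The genes fell into 3 ranges of level. Gsn was high in every sample, Mgp, Smoc2 and Fbln2 were high in some and low in others, and Pdgfra, Pdgfrb, Dcn, Mfap5, Dpt and Lum were low in all. With UMIs from 3′ ends, levels were set side by side without a correction for RNA length. Differences in capture between genes were not tested. Gsn varied 2.12-fold between the lowest and the highest sample, Smoc2 92.0-fold, Mgp 421-fold and Fbln2 471-fold.

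**Figure D1:**
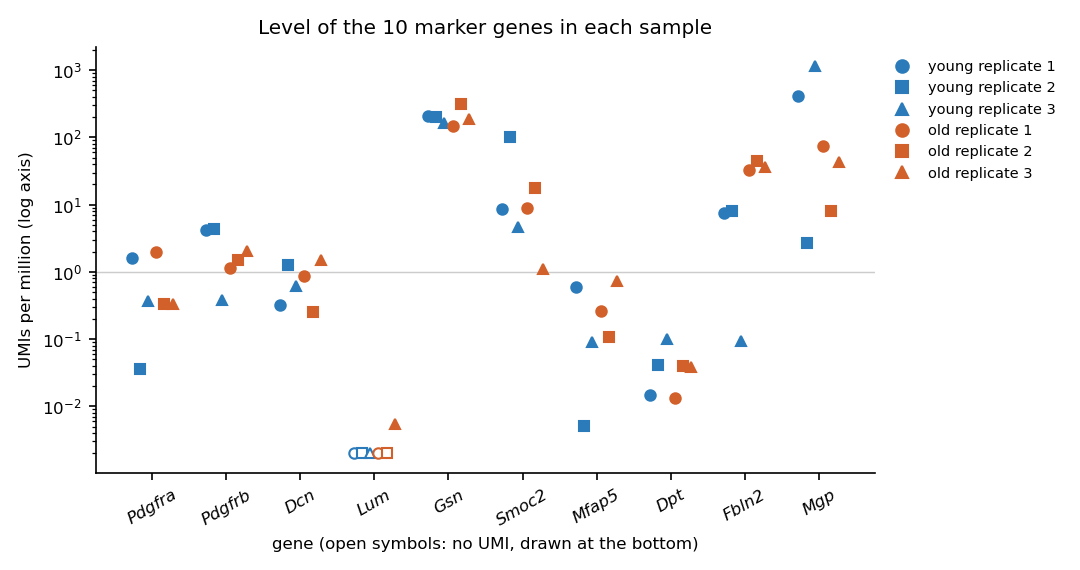
Each point is the level of 1 gene in 1 sample, in CPM on a log axis, with young samples in blue, old samples in orange and replicates by symbol. Gsn sits between 149 and 317 in all 6 samples, Fbln2 is higher in each old than in each young sample, and Lum has open symbols in the 5 samples with no UMI.

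The 2 receptors were scarce. Pdgfra (chromosome 5, 75152292 to 75198215 in GRCm38; here and below the span of the whole gene), the receptor that defines fibro-adipogenic progenitors, was at 1.59, 0.0362 and 0.371 CPM in young and 1.97, 0.332 and 0.329 in old samples. It was highest in young replicate 1 and old replicate 1, the samples on the shorter gene list, and the age groups overlapped. Pdgfrb (chromosome 18, 61045150 to 61085061), the receptor best known from pericytes and other mesenchymal cells, was at 4.14, 4.32 and 0.376 in young and 1.16, 1.53 and 2.06 in old samples. Young replicate 3 was lowest and the groups overlapped here too.

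Of the ligands of these receptors, Pdgfa, Pdgfc and Pdgfd were more abundant than both receptors in every sample. Pdgfa was at 69.8 to 145 CPM over the 6 samples, Pdgfc at 12.1 to 73.2 and Pdgfd at 8.96 to 69.8. Pdgfb was at 0.807 in young replicate 2 and at 3.44 to 12.4 elsewhere. None of the 4 ligand genes passed the test between old and young.

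The leucine-rich proteoglycans Dcn (chromosome 10, 97479609 to 97518143) and Lum (chromosome 10, 97565128 to 97572703), which bind collagen fibrils and are abundant in muscle connective tissue, were scarce. Dcn was at 0.322, 1.26 and 0.625 CPM in young and 0.872, 0.253 and 1.49 in old samples. Lum gave 1 UMI in all, in old replicate 3, and its count of 0 in the other samples (limit of 3 counts) allows up to 0.0225 CPM. Their relative Bgn, the proteoglycan biglycan, stood far above both in some cultures. Bgn was at 391, 0.248 and 324 in young and 11.7, 2.79 and 52.0 in old samples.

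Mfap5 (chromosome 6, 122505845 to 122529290), a microfibril protein, and Dpt (chromosome 1, 164796644 to 164824266), the collagen-binding protein dermatopontin, were also rare. Mfap5 was at 0.599, 0.00517 and 0.0900 CPM in young and 0.258, 0.107 and 0.739 in old samples. Dpt was counted 2, 8 and 19 times in young and 2, 7 and 7 times in old samples. No sample reached 1 CPM for either gene.

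Gsn (chromosome 2, 35256380 to 35307892) encodes gelsolin, which severs and caps actin filaments. It was at 209, 198 and 163 CPM in young and 149, 317 and 186 in old samples. The group means came to 190 ± 24.2 and 217 ± 88.1 (SD, n = 3 each), and the groups overlapped. Old replicate 2 was the highest sample and old replicate 1 the lowest.

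Smoc2 (chromosome 17, 14279506 to 14404790) encodes a secreted calcium-binding protein of the SPARC family. Its level was 8.47, 102.7 and 4.66 CPM in young and 9.04, 17.9 and 1.12 in old samples. Young replicate 2 stood far above the rest, and the means of 38.6 ± 55.6 and 9.35 ± 8.39 (SD, n = 3 each) overlapped. The family member Sparc was higher in every culture, at 223 to 718, while Smoc1 stayed under 1 CPM.

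Fbln2 (chromosome 6, 91212455 to 91272540) encodes fibulin-2, a matrix protein that links fibronectin, laminins and fibrillin. It was at 7.55, 7.92 and 0.0953 CPM in young and 32.2, 44.8 and 36.7 in old samples. Every old sample lay above every young one, with means of 5.19 ± 4.41 and 37.9 ± 6.40 (SD, n = 3 each). Young replicate 3 held only 18 Fbln2 UMIs.

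Mgp (chromosome 6, 136872435 to 136875823, minus strand) encodes matrix Gla protein, a secreted inhibitor of calcification. It was at 414, 2.71 and 1140 CPM in young and 74.8, 7.95 and 43.2 in old samples. Young replicates 1 and 3 were higher than each old sample, and young replicate 2 was the lowest of all, so the groups overlapped (519 ± 576 and 42.0 ± 33.4, SD, n = 3 each). Fbln2, Mgp and Mfap5 lie on chromosome 6, which was higher as a whole in young replicate 3 by a median of 0.30 on the log2 scale. Chromosome 5 (Pdgfra) was higher by 0.23 in old replicate 2 and chromosome 18 (Pdgfrb) by 0.19 in young replicate 2. The part of these shifts in the levels was not tested.

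No member passed the test between old and young cells. Of 14512 genes tested with edgeR's quasi-likelihood test (Benjamini-Hochberg adjustment), 1 gene was called, or 0.00689%, and 512 had an unadjusted p under 0.05. Lum and Dpt were too sparse to be tested. Of the other 8 members 0 were called, and 0 had an unadjusted p under 0.05. Only Fbln2, 1 of the 8, had groups that did not overlap, against 5.93% of all genes tested. DESeq2 called 219 genes and 0 members, with an unadjusted p of 0.0188 for Fbln2 and 0.0314 for Mgp.

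The largest differences, as log2 of old over young, were those of Mgp and Fbln2. Mgp stood at -3.83 (SE 1.89, edgeR adjusted p = 1.00, unadjusted p = 0.0918), and without young replicate 3 it was 0.39. Fbln2 stood at 2.81 (SE 1.4, edgeR adjusted p = 1.00, unadjusted p = 0.0953), and it ranged from 2.08 to 5.27 when each sample was left out in turn. Smoc2 was at -1.83 (SE 1.49) and at 0.45 without young replicate 2. Mfap5 was at 1.91 (SE 1.87), Pdgfrb at -0.96 (SE 1.02), Pdgfra at 0.51 (SE 0.892), Dcn at 0.33 (SE 0.876) and Gsn at 0.06 (SE 0.389). Except for Mfap5 and Fbln2, each of these 8 values changed sign in at least 1 fit that left out a sample.

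The other genes of these families did not pass that test either. Of the genes tested, 0 of 20 other fibro-adipogenic and fibroblast genes, 0 of 12 fibulin and elastic fibre genes, 0 of 7 SPARC family genes, 0 of 5 gelsolin relatives and 0 of 16 collagens were called in either direction. Their median log2 differences were 0.36, -0.28, 0.64, -0.05 and -0.04, beside -0.01 over all genes tested. Within the longer gene list, that is without young replicate 1 and old replicate 1, 0 genes and 0 members were called.

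Other markers of fibro-adipogenic progenitors also ran from moderate levels to near 0. A list of 24 other fibro-adipogenic and fibroblast genes summed to 379 to 1901 CPM in young and 539 to 1638 in old samples. Of these genes 17 reached 1 CPM in some sample, and only a few are named here. Ly6a, the surface antigen SCA-1, was at 2.75 to 126 CPM and Cd34 at 5.61 to 119. Prrx1, a mesenchymal transcription factor, was at 9.27 to 85.5. Pi16, Cd248 and Clec3b each stayed under 1 CPM in every sample. Col1a1, the main collagen of fibroblasts, had 2, 2 and 19 UMIs in young samples and 12, 43 and 1829 in old ones. The 7 pericyte and smooth muscle markers summed to 25.3 to 96.7 CPM in young and 14.7 to 46.9 in old samples. Of these markers 6 reached 1 CPM in some sample. Acta2, smooth muscle actin, was not in this sum. It was at 184 CPM in young replicate 1 and at 27.3, 345 and 1529 in old replicates 1, 2 and 3. These Acta2 values are from the thinned cells described below, without those of 3 or more Fbln2 UMIs. The 5 Schwann markers summed to 22.4 CPM in young replicate 2 and to 0.801 to 3.42 elsewhere. The part of other cell types in the members' levels was not tested. The 6 endothelial markers summed to 2.15 to 62.8 CPM in young and 1.80 to 4.24 in old samples, and the 6 immune markers to 1.47 to 8.20 and 1.4 to 4.62. The pan-leukocyte gene Ptprc had at most 8 UMIs in a sample. The 6 tendon markers summed to 125 to 282 in young and 129 to 304 in old samples, nearly all of it Scx, with Tnmd at 0 to 4 UMIs.

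For the share of cells with a UMI, each cell was thinned at random to 5000 UMIs, which left out 539 young and 829 old cells. Gsn was found in 59.9%, 59.5% and 51.0% of the young and 49.3%, 77.3% and 53.9% of the old cells. Mgp was found in 63.0%, 1.08% and 95.4% of the young and 15.8%, 3.10% and 14.2% of the old cells. Gsn was found in many cells of every culture, and Mgp in most cells of young replicates 1 and 3 only. Smoc2 was found in 3.59%, 35.7% and 2.06% of the young and 4.05%, 8.23% and 0.501% of the old cells, and Fbln2 in 2.69%, 2.9% and 0.0470% and in 11.02%, 17.3% and 3.21%. Without thinning the shares ran from 78.3% to 97.5% for Gsn, from 2.22% to 98.8% for Mgp, from 1.37% to 64.3% for Smoc2 and from 0.148% to 44.7% for Fbln2. Pdgfra reached at most 1.08%, Pdgfrb 2.42%, Dcn 0.601%, Mfap5 0.201% and Dpt 0.0470% of the thinned cells of a sample. Lum was found in none of the 60305 thinned cells, and the count of 0 (limit of 3 counts) allows up to 0.0355% of the cells of a sample to hold a UMI, which does not limit the share that expresses it.

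Differentiating myocytes, a type in which fibro-adipogenic markers should be missing, gave the background for these shares. They were cells with a Myog UMI and 3 or more UMIs of 12 contractile genes, and made up 2.97%, 19.05% and 2.05% of the young and 0.505%, 12.4% and 43.7% of the old cells. Their median depth before thinning was 10521 to 20448 UMIs, and that of the other cells 13370 to 20049. Smoc2 was found in a smaller share of myocytes than of other cells in 6 of 6 samples and Fbln2 in 5 of 5. Young replicate 3, with 5 Fbln2-positive cells, is too sparse to be counted for Fbln2. Smoc2 was found in 0.398%, 21.2% and 0.917% of young and 2.00%, 3.78% and 0.226% of old myocytes, compared with 3.69%, 39.1% and 2.08% and 4.06%, 8.86% and 0.716% of other cells. Fbln2 was found in 0.797%, 1.18% and 0% (of 218 cells, which allows up to 1.38% by the limit of 3 counts) of young and 2.00%, 6.52% and 1.60% of old myocytes, compared with 2.75%, 3.31% and 0.0480% and 11.1%, 18.8% and 4.45% of other cells. The 50 myocytes of old replicate 1 make its myocyte shares imprecise (exact 95% interval 0.0506% to 10.6% for both genes). The interval of the myocyte share included the share of other cells in young replicate 3 and old replicate 1 for Smoc2 and in young replicate 1 for Fbln2.

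Gsn was common in myocytes as well, and so was Mgp in the cultures where it was high. Gsn was found in 36.3%, 66.1% and 55.0% of young and 42.0%, 73.5% and 45.8% of old myocytes, compared with 60.7%, 57.9% and 51.0% and 49.3%, 77.8% and 60.2% of other cells. In young replicates 2 and 3 the myocyte share was therefore not below that of other cells. Mgp was found in 51.0%, 1.18% and 83.5% of young and 24.0%, 0.756% and 8.19% of old myocytes, compared with 63.4%, 1.06% and 95.6% and 15.8%, 3.44% and 18.9% of other cells. Among the scarce members, the myocyte share was above that of other cells for Pdgfra in young replicates 1 and 2 (1.20% against 0.879%, and 0.0493% against 0.0348%), for Pdgfrb in young replicate 3 and old replicate 1 (0.459% against 0.192%, and 4.00% against 0.507%), for Dcn in young replicate 3 and old replicate 2 (1.38% against 0.317%, and 0.189% against 0.161%), for Mfap5 in old replicate 2 and for Dpt in young replicate 2. These shares rest on 1 to 3 positive myocytes each and could not be told from background. How much free RNA from other cells added to these shares was not tested.

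**Figure D2:**
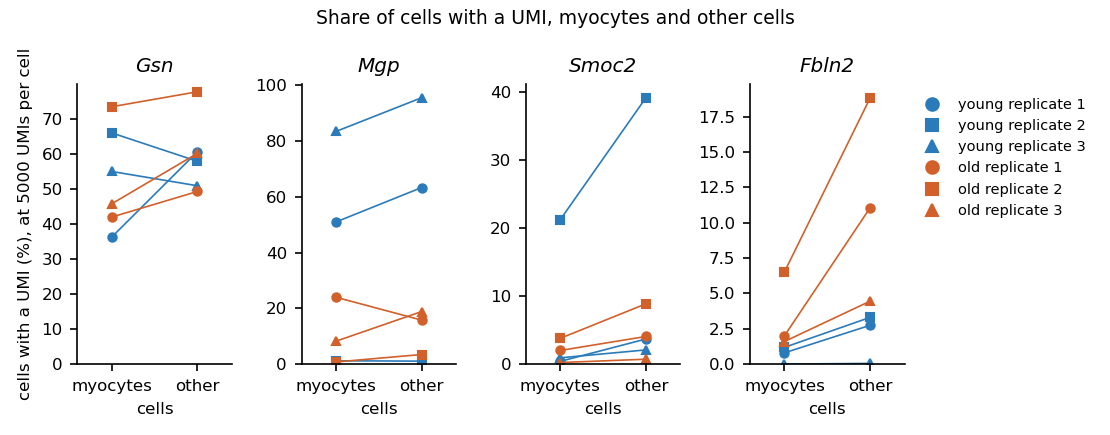
Each line joins, within 1 sample, the percentage of myocytes and of other cells with a UMI of the gene at 5000 UMIs per cell (young samples blue, old samples orange). All 6 lines rise for Smoc2, 5 rise for Fbln2 beside the line of young replicate 3 near 0, and some fall for Gsn and Mgp.

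Fbln2-positive cells held Myod1 less often than the other cells of the same sample in 5 of 5 samples, and the other members had no common direction or too few samples. Co-detection was measured within each sample as the log2 odds ratio of a Myod1 UMI in member-positive against member-negative cells, in samples with at least 20 positive cells. Myod1 was found in 8.81% of Fbln2-positive and 18.4% of Fbln2-negative cells of young replicate 1, and in 74.1% and 79.5% of those of young replicate 2. In old replicates 1, 2 and 3 the pairs were 14.3% and 16.0%, 65.0% and 77.1%, and 42.8% and 93.9%. The mean log2 odds ratio of Fbln2 was -1.41 ± 1.69 (SD, n = 5; two-sided exact sign-flip permutation test, p = 0.0625, the smallest that 5 samples allow). Without thinning, the value of Fbln2 was negative in 3 of 5 samples (mean -1.01 ± 1.96). Young replicate 3, with 5 Fbln2-positive cells, was not used.

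No member could pass this test after adjustment over the 7 members with values, whatever the data. The smallest p that 6 samples allow is 0.03125, and only Pdgfrb, Gsn, Smoc2 and Mgp had 6 samples. The adjusted p from 0.438 to 1 (exact permutation tests) therefore does not decide whether any member differed. Gsn had a mean of -0.21 ± 0.303 (SD, n = 6), with Myod1 in 16.6%, 80.1% and 16.0% of the Gsn-positive young cells of replicates 1, 2 and 3 and in 20.5%, 78.1% and 15.4% of the negative ones. The old pairs for Gsn were 13.7% and 17.8%, 74.7% and 76.1%, and 90.9% and 93.8%. Smoc2 had a mean of -0.17 ± 0.699 (n = 6), negative in 3 samples and positive in 3. Mgp had a mean of -0.38 ± 1.26 (n = 6) and was uneven. In young replicate 1 Myod1 was found in 22.6% of Mgp-positive and 10.5% of Mgp-negative cells, whereas in young replicate 2 it was found in 57.4% and 79.5%. Pdgfrb had a mean of -0.96 ± 2.13 (n = 6, 4 negative) and Dcn of -0.59 ± 2.68 (n = 4, 1 negative). Pdgfra could be measured in 2 samples, at -1.26 in young replicate 1 and -1.56 in old replicate 1.

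Old replicate 3 had the lowest value for Pdgfrb, Dcn, Gsn, Smoc2 and Fbln2. In that culture, where 92.3% of all thinned cells had a Myod1 UMI, it was found in 32.3% of the 62 Pdgfrb-positive and 33.3% of the 24 Dcn-positive cells (log2 odds ratios -4.69 and -4.55). Without old replicate 3 the means of Dcn and Smoc2 turned to 0.73 and 0.08, and those of Pdgfrb and Fbln2 moved to -0.21 and -0.67.

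With Myog, the factor of differentiation, Smoc2 and Fbln2 were less often co-detected in each sample that could be used. The mean log2 odds ratio was -1.15 ± 0.659 (SD, n = 6) for Smoc2 and -1.52 ± 0.191 (n = 5) for Fbln2. The two-sided exact sign-flip permutation p was 0.0312 and 0.0625, the smallest possible with 6 and 5 samples, and 0.219 for both after adjustment. As with Myod1, no member could pass after adjustment at these sample numbers. With Des, the intermediate filament of muscle, Fbln2 was also negative in 5 of 5 samples (mean -1.56 ± 1.25). With Pax7 it was negative in 5 of 5 (mean -0.54 ± 0.549). With Myf5, Fbln2 was positive in 4 of 5 samples (mean 1.15 ± 2.43), but 1 of these values holds no information. No thinned cell of young replicate 1 held a Myf5 UMI. Its value, the largest at 5.17, comes only from the 0.5 added to each count and raises the mean. In summed counts, Myf5 did not differ clearly between Fbln2-positive and Fbln2-negative cells (log2 difference 0.15, SE 0.332, edgeR adjusted p = 0.945).

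**Figure D3:**
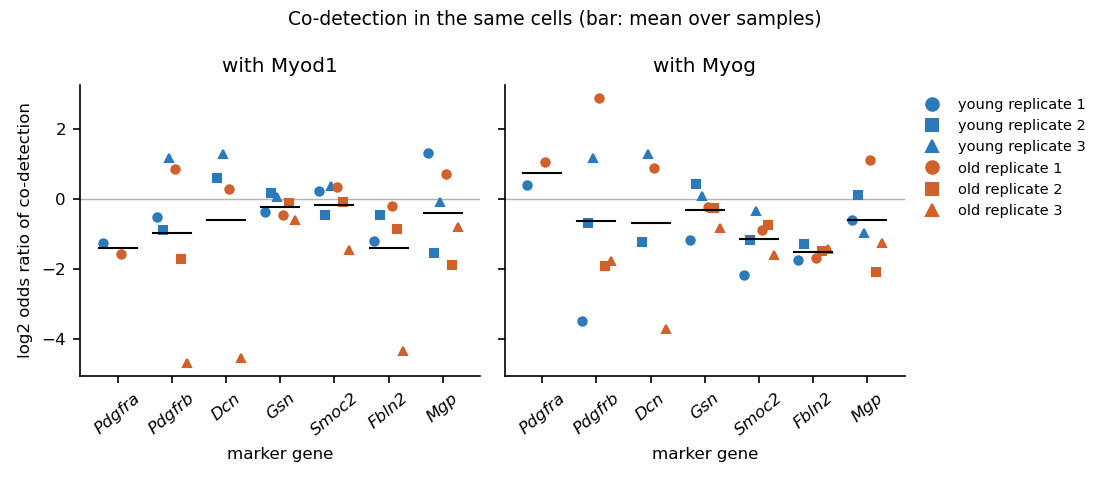
Points are the log2 odds ratios of finding Myod1 (left) or Myog (right) in the same cells as each member, 1 point per sample with 20 or more positive cells, and bars are means over samples. Fbln2 lies below 0 in all 5 samples in both panels, and the point of old replicate 3 is far below the others for Pdgfrb, Dcn and Fbln2 with Myod1.

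Members were found together in the same cells more often than their separate shares would give for some pairs. Pdgfrb and Gsn were found together in more cells than the product of their shares in 6 of 6 samples (mean log2 odds ratio 0.65), for example in 172 cells of young replicate 2 where 153.5 would be expected. Dcn and Gsn were above that number in 4 of 4 samples (mean 1.01). Pdgfrb and Smoc2 were together in 119 cells of young replicate 2 (92.2 expected) and in 14 of old replicate 2 (6.50 expected), but in 2 of old replicate 1 (2.10 expected) and 0 of young replicate 3 (0.433 expected). Dcn and Fbln2 were together in 18 of the 24 Dcn-positive cells of old replicate 3 (0.769 expected), in 2 cells of young replicate 2 (1.86 expected) and in 4 of old replicate 1 (4.30 expected). Pdgfrb and Dcn shared at most 2 cells in a sample. Fbln2 and Mgp were together less often than expected in young replicates 1 and 2 and old replicates 1 and 3, with 64 cells against 173 expected in old replicate 1, and more often in old replicate 2 (49 against 45.7). These numbers are descriptions, since both genes of a pair share the cells and depth of a sample. A cell with UMIs of 2 of the genes Pdgfra, Dcn, Lum and Dpt was found once in young replicate 1 and once in old replicate 3 among all 60305 thinned cells.

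Cells with UMIs of 2 or more of the 10 genes made up 41.9%, 25.2% and 50.04% of the young and 16.7%, 21.9% and 11.3% of the old cells, without overlap between the groups. The means were 39.0% ± 12.6 and 16.7% ± 5.29 (SD, n = 3 each), a difference of -22.4 percentage points (two-sided exact permutation test, p = 0.1, the smallest that 3 against 3 allow). This share rested on Gsn in every sample, but on Mgp only in some. When Mgp was not counted, it was still 24.8% in young replicate 2 and 19.9% in old replicate 2. Gsn was found with Smoc2 in 2315 cells of young replicate 2 and with Fbln2 in 1144 cells of old replicate 2. In the other samples the share fell more without Mgp, for example to 5.83% in young replicate 1. The class was therefore made up of different genes in different samples. When Gsn was not counted, the young share was 3.76% ± 1.71 and the old one 2.10% ± 0.881 (SD, n = 3 each), with p = 0.1 by the exact permutation test. When Mgp was not counted, the young share was 10.7% ± 12.4 and the old one 10.5% ± 8.63 (SD, n = 3 each), a difference of -0.171 points (exact permutation test, p = 1). Cells with 3 or more of the genes made up 2.35% ± 1.18 of the young and 1.47% ± 0.728 of the old cells (SD, n = 3 each; exact permutation test, p = 0.4).

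**Figure D4:**
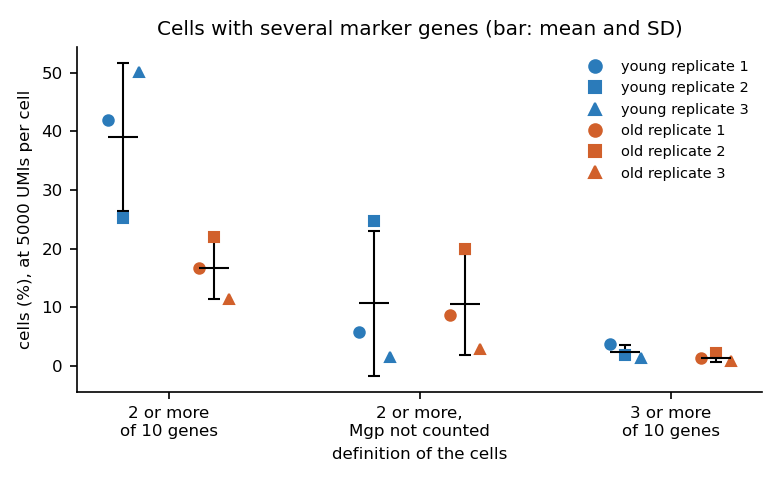
Points are the percentages of cells, at 5000 UMIs each, with UMIs of several of the 10 genes, 1 point per sample (young blue, old orange), with bars for the mean and SD of each age group. The old points lie below the young ones for 2 or more of 10 genes, and the groups overlap once Mgp is not counted.

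Cells with 2 or more members were then compared with cells of the same sample that held none, with the members themselves left out of the test. The gene lists were chosen with earlier results of these data known. Among these lists, collagens were called higher most often (5 of 11 tested) and contractile genes lower (6 of 12) in cells with 2 or more members. Of 11466 genes tested with edgeR's quasi-likelihood test with the sample as a block (Benjamini-Hochberg adjustment), 608 (5.3%) were called, 344 (3%) higher and 264 (2.3%) lower. No gene passed the test for a difference between the age groups in this contrast (0 called, 396 with an unadjusted p under 0.05, edgeR interaction term). With 3 samples per age this does not show that the groups were alike. The genes named next for their fold change were picked among those that moved the same way in 6 of 6 samples. That agreement was therefore fixed by the rule.

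Among the higher genes, Ly6a rose from 24.5 to 46.7 CPM (log2 difference 0.97, SE 0.135, edgeR adjusted p = 0.0105). Edil3, a matrix ligand of integrins, rose by 0.61, and the fibril collagen Col3a1 by 0.71. Fn1, fibronectin, rose by 0.60, the pyrophosphate transporter gene Ank by 0.73, and Spp1, osteopontin, by 0.72. The cytosolic dehydrogenase gene Idh1 rose by 0.63 and the adhesion gene Alcam by 0.57. The 11 collagens tested had a median of 0.45 (all genes 0.01), and Col3a1, Col12a1 (0.65) and Col18a1 (0.45) were the 3 most changed of those called. Among other fibro-adipogenic and fibroblast genes, only Ly6a of 14 tested was called (median 0.27). Among fibulin and elastic fibre genes, Ltbp3 (0.49) and Efemp2 (0.31) of 10 tested were called, both higher.

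Among the lower genes, the embryonic myosin Myh3 fell from 109 to 5.99 CPM (log2 difference -4.45, SE 0.516, edgeR adjusted p = 0.0190). The cardiac and skeletal actins Actc1 and Acta1 fell by 4.42 and 3.97, the myosin light chains Myl4 and Mylpf by 4.16 and 3.44, the troponins Tnnc2 and Tnnc1 by 3.97 and 3.46, and Mymk, which drives myoblast fusion, by 2.96. Of 12 contractile genes 6 were called lower (median -3.31). Myog fell by 2.71 (SE 0.371, edgeR adjusted p = 0.0272). Myod1 did not pass the test (-0.33, SE 0.245, edgeR adjusted p = 0.487; lower in 5 of 6 samples). No S phase gene and no gene of G2 and mitosis was called (0 of 15 in each list), although all 15 of the latter were below 0 (median -0.12).

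These calls depended on single samples and on the myocytes. Without young replicate 1, 2 or 3, 249, 298 or 304 genes were called, and without old replicate 1, 2 or 3, 358, 71 or 563. Ly6a, Edil3, Col12a1, Col18a1 and the p53 target Trp53inp1 (0.51) were called in 6 of 6 of these fits, and Col3a1, Fn1, Idh1 and Ltbp3 in each but the one without old replicate 2. Ank was called in 1, Spp1 and Alcam in 3, Efemp2 in 2, Myh3 in 5, Actc1 and Myl4 in 3, Tnnc1 in 2, Acta1, Tnnc2, Mylpf and Myog in 1 and Mymk in none. Without the myocytes 711 genes were called, of which 388 were among the 608. Ly6a (0.77), Edil3 (0.47), Col12a1 (0.63) and Trp53inp1 (0.46) were still called, Col18a1 was not (0.32, edgeR adjusted p = 0.0594), Myog was at 0.02, and 1 of 10 contractile genes tested was lower. Because myocytes were defined by Myog and contractile UMIs, their removal takes Myog and the contractile genes away by construction. Without the myocytes 6 of 15 G2 and mitosis genes were called lower (median -0.24), and 1 of 15 S phase genes. Of the 11 collagens tested, 2 were called higher there.

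The 4 more abundant members were then followed one by one, as a comparison added after their levels had been seen. Cells with a UMI of the member were compared with cells of the same sample without one, by the same test.

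Gsn-positive cells had higher levels of 5 of 14 collagens tested and lower levels of 10 of 15 G2 and mitosis genes. Of 12321 genes tested 1235 (10%) were called, 720 (5.84%) higher and 515 (4.18%) lower. Ecm1, a secreted matrix protein, rose by 0.45, Ly6a by 0.53, Col6a1 by 0.61 and Fn1 by 0.30. Of the other members, 2 of 5 tested were called, both higher: Dcn by 0.95 (SE 0.241, edgeR adjusted p = 0.0213) and Pdgfrb by 0.63 (SE 0.142, edgeR adjusted p = 0.0119), each in 6 of 6 samples. Dcn was sparse, with a mean of 0.892 CPM in Gsn-positive and 0.480 in Gsn-negative cells. In young replicate 1 and old replicate 2 its direction rests on 13 and 14 Dcn-positive thinned cells, too few for a co-detection value. Dcn was not called without young replicate 3 or old replicate 3.

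Of the G2 and mitosis genes 10 of 15 were lower in Gsn-positive cells and none higher (median -0.19), for example Top2a, topoisomerase IIα (-0.24, SE 0.0306, edgeR adjusted p = 0.000429). Of the S phase genes 7 of 15 were lower (median -0.12). The linker and core histone genes Hist1h1b and Hist1h2ae were lower by 0.40 and 0.30 (log2 -0.40 and -0.30), as was Sox11, a factor of progenitor cells (-0.41). Contractile genes were not called (0 of 12, median -0.96). Myod1 was nearly level (-0.08, SE 0.0939, edgeR adjusted p = 0.657). Without myocytes 2227 genes were called, 1183 of them among the 1235, with 14 of 15 S phase and 13 of 15 mitosis genes lower. Without young replicate 3, 654 genes were called, and without old replicate 2, 734.

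Mgp-positive cells stood apart in fewer genes, 176 of 12035 tested (1.46%), 104 higher (0.864%) and 72 lower (0.598%). Col3a1 rose by 0.84, the carbonic anhydrase relative Car8 by 0.80, Edil3 by 0.72, the glutathione transferase Gstm1 by 0.69 and Aig1 by 0.66. The rule for naming them required the same direction in 6 of 6 samples. The pericyte gene Rgs5 rose by 1.95 (SE 0.371) and Spock1, a SPARC family proteoglycan, by 1.43 (SE 0.273). Rgs5 was sparse in young replicate 1, with 37 UMIs over all thinned cells. Old replicates 1, 2 and 3 held 5, 20 and 10, so its direction in these samples rests on few counts. The muscle stem cell gene Pax7 was also higher in Mgp-positive cells, by 0.59 (SE 0.101, edgeR adjusted p = 0.0107), in 6 of 6 samples. It was called in each fit that left out a sample. In young replicate 3 its direction rests on 3 Pax7-positive thinned cells. As co-detection, Mgp with Pax7 was above 0 in 5 of 6 samples (mean 0.27 ± 0.929). The negative value was -1.55 in young replicate 3, where all 3 Pax7-positive cells also held Mgp. Its sign comes only from the 0.5 added to each count, and it lowers the mean. The adjusted p of Pax7 was 0.0717 without myocytes (edgeR, log2 difference 0.49). The cornified envelope gene Lce1g and the caveolar gene Cavin2 were lower (-0.77 and -0.52), as was Ckm, muscle creatine kinase (-2.14).

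None of 5 other members tested was called in Mgp-positive cells, with 1.46% of all genes called. Fbln2 was at -0.97 there (SE 0.256, edgeR adjusted p = 0.155; lower in 5 of 6 samples). Of the genes named for Mgp, Car8, Edil3, Gstm1, Aig1, Lce1g and Cavin2 were called in 6 of 6 fits that left out a sample, Rgs5 and Ckm in 4 and Col3a1 and Spock1 in 3. Without old replicate 2 or 3, 85 or 71 genes were called, and without myocytes 80, of which 61 were among the 176. Col3a1 and Edil3 were not called there, at 0.79 and 0.65 (edgeR adjusted p = 0.0833 and 0.0570).

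In Smoc2-positive cells 10 of 12 contractile genes were lower. Of 12243 genes tested 1123 (9.17%) were called, 413 higher (3.37%) and 710 lower (5.8%). With the low-count filter set from the full design, the split was 294 higher and 1131 lower. The contractile genes had a median of -2.32 and included Myh3 (-3.13, SE 0.162) and Actc1 (-2.83, SE 0.267). Myog was lower by 1.92 (log2 -1.92, SE 0.0858, edgeR adjusted p = 2.77e-09) in 6 of 6 samples, and Mef2c, a partner of the myogenic factors, was at -0.90. Myod1 was lower as well (-0.27, SE 0.0446, edgeR adjusted p = 1.73e-05), in 4 of 6 samples. Without myocytes Myog was at -0.05 and Myod1 at -0.11 (edgeR adjusted p = 0.105), neither of them called.

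The genes higher in Smoc2-positive cells included collagens, 5 of 14 tested, led by Col6a3 (1.08) and Col6a1 (0.61). The cartilage factor Sox9 rose by 0.46, the stereocilia scaffold gene Whrn by 0.50, Ank by 0.53 and the lipolysis inhibitor G0s2 by 0.46. Here too the naming rule required the same direction in 6 of 6 samples. Rgs5, which was sparse in the samples named above, rose by 1.09 (SE 0.199). The ecto-nucleotidase gene Nt5e (CD73) rose by 0.73 and Emilin1 by 0.63. Of 5 other members tested Pdgfrb was called, higher by 0.70 (SE 0.192, edgeR adjusted p = 0.0105), in 4 of 6 samples. It was not called without young replicate 2 or old replicate 2, where 610 and 645 genes were called. Col6a3, Emilin1 and Actc1 were not called without young replicate 2, nor Nt5e without it or old replicate 1. Without myocytes 820 genes were called, 632 of them among the 1123.

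In Fbln2-positive cells, compared in 5 samples, 5 of 12 contractile genes were lower. Of 12239 genes tested 43 (0.351%) were called, 0 higher and 43 lower. The contractile genes had a median of -2.42, with Ckm at -3.15 and Myh3 at -3.07. Myog was at -2.47 (SE 0.267, edgeR adjusted p = 0.0271) and Mef2c at -1.12, each lower in 5 of 5 samples. None of 6 other members tested was called. Mgp was at -0.995 (SE 0.290, edgeR adjusted p = 0.457; lower in 5 of 5), Pdgfrb at 1.36 (SE 1.10) and Dcn at 1.85 (SE 1.51). The count was 1 without myocytes (0 of it among the 43), 21, 0, 18 or 1 without young replicate 1 or 2 or old replicate 1 or 2, and 163 without old replicate 3. Of the genes named for Fbln2, Myog and Ckm were called in 3 of these 5 fits, and Myh3 and Mef2c in 2.

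The Fbln2 UMIs were spread over many cells in old replicates 1 and 2 and gathered in few cells in old replicate 3. Cells with 3 or more Fbln2 UMIs at 5000 UMIs, a limit chosen after the values were seen and used here for description only, numbered 20, 15 and 0 in young and 87, 47 and 151 in old samples. They held 19.7% and 8.38% of the Fbln2 UMIs of old replicates 1 and 2, and 71.1% of those of old replicate 3, where they were 1.24% of the cells. In old replicate 3 these 151 cells had a median of 31818 UMIs before thinning, compared with 13143 in the rest, and 107 of them were among the 1285 deepest cells that a doublet alternative leaves out. No doublet caller was run, and how far doublets enter these cells was not tested. Without the cells of 3 or more Fbln2 UMIs in every sample, the old-over-young value of Fbln2 was 2.53, and without the deepest cells 2.39, compared with 2.81 for all cells.

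The 151 cells of old replicate 3 held more of several matrix genes than the other cells of that culture, and less Col3a1. Col1a1 was found in 51.7% of them and in 0.632% of the other cells, at 205 and 2.06 CPM, and Col1a2 was at 366 and 3.98 CPM. Col3a1 was at 15.9 and 72.7 CPM, and Fn1 at 781 and 143. Bgn was at 792 and 22.4 CPM, Timp3, a metalloprotease inhibitor, at 649 and 6.52, the growth factor binding protein gene Igfbp4 at 1083 and 19.6, and Ccn2, connective tissue growth factor, at 491 and 4.68. Among the members, Pdgfrb was at 38.4 and 0.649 CPM, Dcn at 10.6 and 0.649 and Mfap5 at 11.9 and 0.117, whereas Mgp was at 15.9 and 48.0. The Dcn value rests on 8 UMIs in only 1.32% of the 151 cells, beside 39 UMIs in 0.183% of the other cells. Mfap5 had 9 UMIs in the 151 cells and 7 in the other cells. Myod1 was found in 27.8% of them and in 93.1% of the other cells, and Des in 17.9% and 81.7%. Cd34 was at 134 and 14.7 CPM and Ly6a at 33.1 and 20.5. Pdgfra was at 5.30 and 0.133 CPM, from 4 UMIs in the 151 cells and 8 in the other cells. Other genes did not share this direction. Smoc2 was at 1.32 and 0.999 CPM, from 1 UMI in the 151 cells, and Acta2 was lower, at 783 and 1529. Tagln was higher, at 83.4 and 16.2. Thy1, Postn, Lum and Dpt had no UMI in the 151 cells, which allows up to 3.97 CPM by the limit of 3 counts.

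The high-Fbln2 cells of the other old samples had this profile only in part. Fn1 was higher in them than in the other cells (363 and 254 CPM in old replicate 1, 200 and 88.2 in old replicate 2). So was Ly6a (57.5 and 18.3, and 200 and 123). Cd34 was lower in old replicate 1 (108 and 122 CPM) and higher in old replicate 2 (59.6 and 34.0). Igfbp4 was also lower in old replicate 1 (25.3 and 36.6 CPM). In old replicate 2 it was higher (21.3 and 5.67), from 5 UMIs in the 47 cells. Des was found in 0% and 2.13% of the high-Fbln2 cells (limit of 3 counts 3.45% and 6.38%) and in 5.73% and 17.7% of the other cells. Timp3 was lower in old replicate 1 (32.2 and 67.8 CPM) and higher in old replicate 2 (128 and 54.7). Col1a1 had no UMI in the 87 cells of old replicate 1 or the 47 of old replicate 2, which allows up to 6.90 and 12.8 CPM by the limit of 3 counts. In old replicate 1 Col1a2 was found in 40.2% of them and 6.22% of the other cells, while Bgn was at 11.5 and 11.6 CPM and Myod1 in 11.5% and 15.8%. In old replicate 2 Col1a2 was found in 4.26% and 2.87%, and Myod1 in 44.7% and 75.2%. Myog had no UMI in these cells of either sample, which allows up to 3.45% and 6.38% of them to hold one, compared with 0.672% and 14.6% of the other cells.

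**Figure D5:**
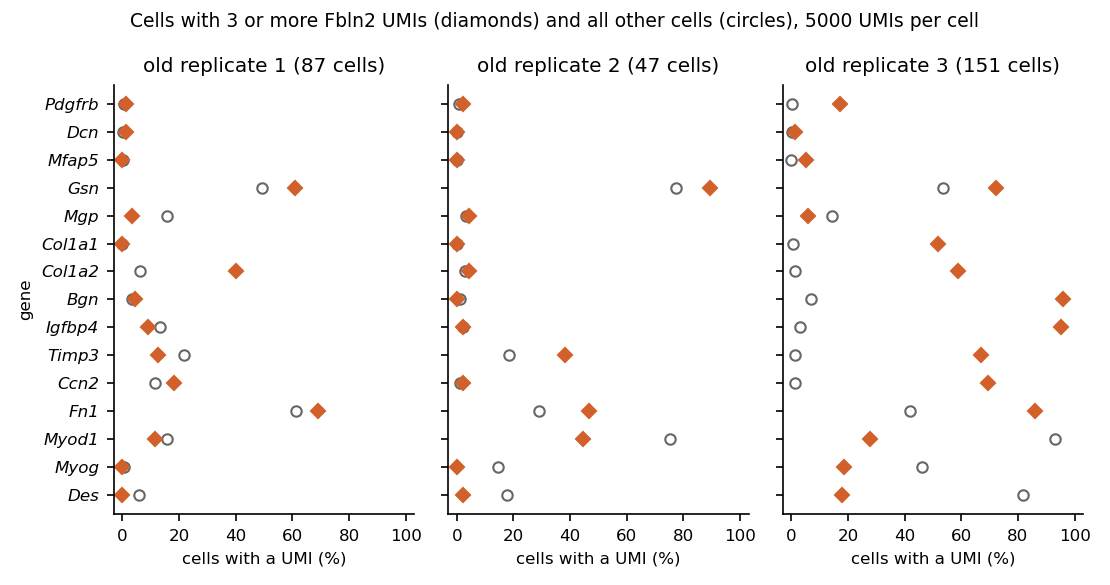
For each old sample, diamonds are the percentage of cells with 3 or more Fbln2 UMIs that hold a UMI of the gene named at the left, and circles the percentage in all other cells, at 5000 UMIs per cell. In old replicate 3 Col1a1, Col1a2, Bgn, Igfbp4, Timp3 and Ccn2 are far to the right of the circles and Myod1 and Des to the left, and in old replicates 1 and 2 most pairs lie closer together.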

How the data were processed

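The authors deposited raw UMI counts, 1 matrix per sample, made with Cell Ranger 7.0.0 (young replicate 1, old replicate 1) or 7.2.0 (the other 4), per the file headers. The genome build is mm10, per the submitters' processing notes, and further alignment settings are not given in the sources used here. The 10 members and all gene lists were chosen with earlier results of these data known.

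Cells with at least 1000 UMIs, 500 genes and under 15% mitochondrial UMIs were kept. No doublet caller was run, and removal of the deepest cells (618 to 1285 per sample, the expected doublet number) was an alternative. Levels are UMIs per 1000000 UMIs (CPM) on the 21485 shared genes. Total counts per sample ran from 133974782 to 196481316 UMIs.

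Counts summed per sample were tested with edgeR 4.0.16 (TMM, robust quasi-likelihood test, gene list and age as terms, adjusted p under 0.05). DESeq2 1.42.0 was an alternative. Contrasts of cell classes used the counts of cells thinned to 5000 UMIs, with the sample as a block. The low-count filter was first set from the full design and was changed to the tested groups after results had been seen. Co-detection used log2 odds ratios with 0.5 added and exact sign-flip tests. The genes named, in part, are the members; Myod1, Myog, Pax7, Myf5 and Des; of the genes most higher and most lower, up to 8 each that passed the test, had a mean log2 CPM of 5 or more and moved alike in every sample; up to 3 called genes of each list; and the 3 genes most correlated with each member. Other list genes named by level, and those of the cells with many Fbln2 UMIs, were chosen after their values were seen. The comparison by single member, the share without Mgp and the cells with 3 or more Fbln2 UMIs were added after levels had been seen. The script was tested on simulated counts. R 4.3.3 and Python 3.11.15 were used.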

Additional observations from a re-analysis of the deposited data

How the results depend on the processing

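The depth limited Lum, Dpt and Mfap5, which gave too few UMIs for co-detection at 5000 UMIs per cell, and 3 samples per age limited every test between ages. Of 279 values of single genes under alternative settings, 250 kept their direction and their side of the threshold. Of the rest, 21 changed direction, 7 no longer passed the test and 1 newly passed it. The cause was not tested unless the setting itself removes the cells concerned. Only Myog, between cells with 2 or more members and cells with none, passed in the main setting. It accounts for the 7 that no longer passed. The other values had not passed there, and those of co-detection could not, so most of the 250 only stayed uncalled. The level of Dcn, old over young, was -0.0195 within the longer gene list and -0.97 without the deepest cells. With 1 sample left out it ranged from -0.57 to 0.89, Pdgfra from -0.0716 to 1.59, Pdgfrb from -1.68 to 0.23, Gsn from -0.27 to 0.52, Smoc2 from -3.06 to 0.45 and Mgp from -4.63 to 0.39. The mean co-detection with Myod1 was 0.53 for Gsn without thinning, 0.73 for Dcn without the deepest cells and 0.00081 for Smoc2 without myocytes, and with 1 sample left out it ranged from -1.21 to 0.73 for Dcn and from -0.28 to 0.0842 for Smoc2. Between cells with 2 or more members and cells with none, Pax7 was at -0.0046 when Gsn was not counted, and without myocytes Myog was at 0.0178, Pax7 at -0.0427 and Des at 0.13, while Myf5 passed the test there (-0.34, edgeR adjusted p = 0.0282).

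Between old and young, 219 genes were called by DESeq2, 0 without the gene list term (501 with an unadjusted p under 0.05), 0 within the longer gene list (998 unadjusted) and 0 to 3 with 1 sample left out. Between cells with members and cells with none, 105 genes were called for 3 or more members, 366 for 1 or more, 75 when Gsn was not counted, 937 without the deepest cells, 0 without the sample block (130 unadjusted) and 71 to 563 with 1 sample left out. The share of these cells differed by -0.886 points for 3 or more members, -17.3 for 1 or more, -1.66 when Gsn was not counted, -0.171 when Mgp was not counted, -30.3 without thinning and -21.0 within the longer list, and by -29.3 to -16.9 with 1 sample left out. By single member, without myocytes, 2227 genes were called for Gsn, 80 for Mgp and 1 for Fbln2, and with 1 sample left out 654 to 1339 for Gsn, 71 to 201 for Mgp, 610 to 1230 for Smoc2 and 0 to 163 for Fbln2. With the low-count filter set from the full design, which was run first, 1 gene was called between ages, 611 by number of members, 1249 for Gsn, 213 for Mgp, 1425 for Smoc2 and 51 for Fbln2.

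The replicate numbers did not pair the samples: deviations of same-numbered young and old samples correlated at 0.378, 0.224 and -0.0814 over 14512 genes, and young replicates 2 and 3 correlated best with another number. With the replicate block, 1 gene was called between old and young (484 with an unadjusted p under 0.05).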

Other observations

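In old replicate 3, a single cell with 47648 UMIs held 9 of the 10 genes, with 35 UMIs of Fbln2, 8 of Gsn, 4 each of Pdgfrb and Mgp, 3 of Smoc2, 2 each of Pdgfra and Mfap5 and 1 each of Dcn and Dpt. It also held 38 UMIs of Col1a2 and 6 of Col1a1, and none of Lum or Myod1. Before thinning, cells with 6 or more of the 10 genes numbered 14 in old replicate 3, 1 in young replicate 1 and 1 in old replicate 1, and 0 in the other 3 samples.

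Over the 6 samples, the genes whose log2 CPM followed a member most closely were Car8 (Pearson r = 0.990), Crim1 (0.988) and Cd44 (0.970) for Mgp, Rgs12 (0.991), mt-Atp8 (0.988) and Ctsz (0.985) for Fbln2, Stx7 (0.987) and Dynlt3 (0.984) for Gsn, Ralb (0.967) for Smoc2 and Ccnd1 (0.990) and Rbpj (0.983) for Pdgfra. They were picked as the highest of 4166 genes in 6 samples, so high values occur whatever the genes do, and no test was made. Car8, a carbonic anhydrase relative, had 157, 0.926 and 240 CPM in young replicates 1, 2 and 3 and 42.5, 3.68 and 18.1 CPM in old ones, and it was also among the genes higher in Mgp-positive cells of the same sample.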
